A study of Mus musculus with 4 samples.

Results

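Measurements are given for 10 genes whose RNA is commonly measured as a sign of reactive astrocytes, and whose products are mostly secreted or sit in the cell membrane. They are Serpina3n, Lcn2, Cp and Ptx3, which are secreted, Slc10a6, Steap4, Cd44, Emp1 and S1pr3, which are membrane proteins, and Aspg, an asparaginase-type enzyme of the cell interior that goes against the heading of secreted or surface genes. Every probe whose gene name in the scanner files was 1 of these 10 names was taken, which gave 15 of the 55681 probes on the array and 10 of its 34844 names. Of these, 2 probes belong to Slc10a6, 2 to Cp and 4 to Cd44, and each other gene has 1 probe.

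The 4 arrays come from 4 adult male ICR mice of 8 weeks, an outbred stock with no genetic modification given in the labels. The SNL group (2 mice) had spinal nerve ligation, a tight silk tie around the L5 spinal nerve that is a standard model of neuropathic pain. The sham group (2 mice) had the same nerve laid open without a tie. All 4 mice were anaesthetised with isoflurane, lost the L6 transverse process in the operation and were perfused with saline at day 10, when the lumbar cord was taken. By the protocol this was segments L4 to L5, by the source field L5 only, and the side taken is not stated. Setting SNL against sham shows how the RNA of these genes differs in cord that an injured nerve enters.

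Astrocytes answer injury in the nervous system by changing their gene expression, a state called reactive. Cytokines of the interleukin-6 family, acting through the transcription factor STAT3, and inflammatory signals acting through NF-kB are among the known inducers of this state. Several of its genes, among them Lcn2, Cp, Ptx3 and Serpina3n, belong to acute-phase or inflammatory responses in other organs, so none of them marks astrocytes alone. The array read whole tissue, in which a change in the number of cells of a type and a change in RNA per cell cannot be told apart.

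All values are log2 of the spot's signal over its array's 75th percentile, so 0 is the 75th percentile and 1 unit is a 2-fold step. Values of different probes are not compared in level. The share of spots well above background was 82.1% and 81.9% for sham and 74.9% and 78.1% for SNL mice, and the number of arrays limits the precision. Atf3, which damaged neurons induce, rose 37.2-fold in SNL (limma adjusted p = 0.0394) and separates the groups as labelled. The astrocyte markers were measured in every mouse. Their summed signal over 12 genes was 66.6 and 68 times the 75th percentile in sham mice and 73.4 and 67.4 times in SNL mice. Both sham arrays lie in row 1 of the slide and both SNL arrays in row 2, so row and group cannot be told apart.

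The probes of the 5 genes on which the results turn are shown first, because several probes read Slc10a6, Cp and Cd44. The first 30 of each probe's 60 bases are given as the scanner files hold them, in lower case throughout since no part is singled out. Probes of a gene are numbered in order of brightness.
Serpina3n: ttggcatgcctggattagatagtgactaac
Lcn2: aaggagcatctggagcctcttcttatttgg
Slc10a6 probe 1: agagaccagtgctttcttggataaagggga
Slc10a6 probe 2: cagaaaagcctgtggcttgtttcctgtttg
Cp probe 1: tctgatgtctttgaccttttccctggaaca
Cp probe 2: gcttgcagtgtctatatgtactagagataa
Cd44 probe 1: tcagaggcagctggcatcctttgttttgtt
Cd44 probe 2: gacgagacccggaatctgcagagtgtggac

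In the mouse build mm9, to which the file headers refer, the Serpina3n probe lies at chr12:105651918-105651977 on the plus strand and the Lcn2 probe at chr2:32240199-32240258 on the minus strand. The Slc10a6 probes lie at chr5:104035619-104035678 (probe 1) and chr5:104035070-104035129 (probe 2), both on the minus strand. The Cp probes lie at chr3:19889071-19889130 and chr3:19907511-19907570 on the plus strand. The Cd44 probes 1 to 4 lie on the minus strand at chr2:102651398-102651457, chr2:102654278-102654337, chr2:102672645-102672704 and chr2:102677971-102678030. The place of each probe within exons was not analysed here.

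By the brightest probe of each gene, 9 of the 10 genes had a higher mean in SNL than in sham mice, against 55% of tested genes. S1pr3 was the exception, and Cd44 probe 3 was also lower. Serpina3n, Aspg and Slc10a6 (probe 1) were each more than 2-fold higher with little spread between mice of a group. Lcn2 was also more than 2-fold higher but spread widely between the SNL mice, and Steap4, Cp and Emp1 spread widely between the sham mice. No probe of the 10 genes passed at a Benjamini-Hochberg adjusted p under 0.05 in limma (0 of 15 probes), where 0.152% of all 44718 tested probes passed. Of these, 63 were higher (0.141% of tested probes) and 5 lower (0.0112%). At an unadjusted p under 0.05, 8 of the 15 probes were higher in SNL and 0 were lower, against 6.22% and 5.98% of all tested probes.

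By the looser rule of at least a 2-fold difference at unadjusted p under 0.05, 7 of the 15 probes were higher and 0 lower, against 1.8% and 0.767% of all tested probes. They were the probes of Serpina3n, Lcn2 and Aspg, both probes of Slc10a6, Cp probe 2 and Cd44 probe 2. Both SNL mice lay above both sham mice for 11 of the 15 probes, against 23.6% of all tested probes, and both lay below for 0, against 22.5%. The median difference of the 15 probes was 1.09 on the log2 scale, and that of all tested probes was 0.015. Differences lay above 0 for 13 of the 15 probes and for 52.5% of all tested probes. All 15 probes passed the filter on dim signal, which asked that 2 or more of the 4 arrays read a probe well above background. Slc10a6 probe 2 passed it through the SNL mice alone, where it is high. Without this probe the counts were 6 of 14 by the looser rule, 7 of 14 higher at unadjusted p under 0.05 and 10 of 14 with both SNL mice above both sham mice. The median difference of the 14 probes was 0.93. Without sham replicate 2 the looser rule counted 5 of the 15 probes, and without sham replicate 1 it counted 9.

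**Figure D1:**
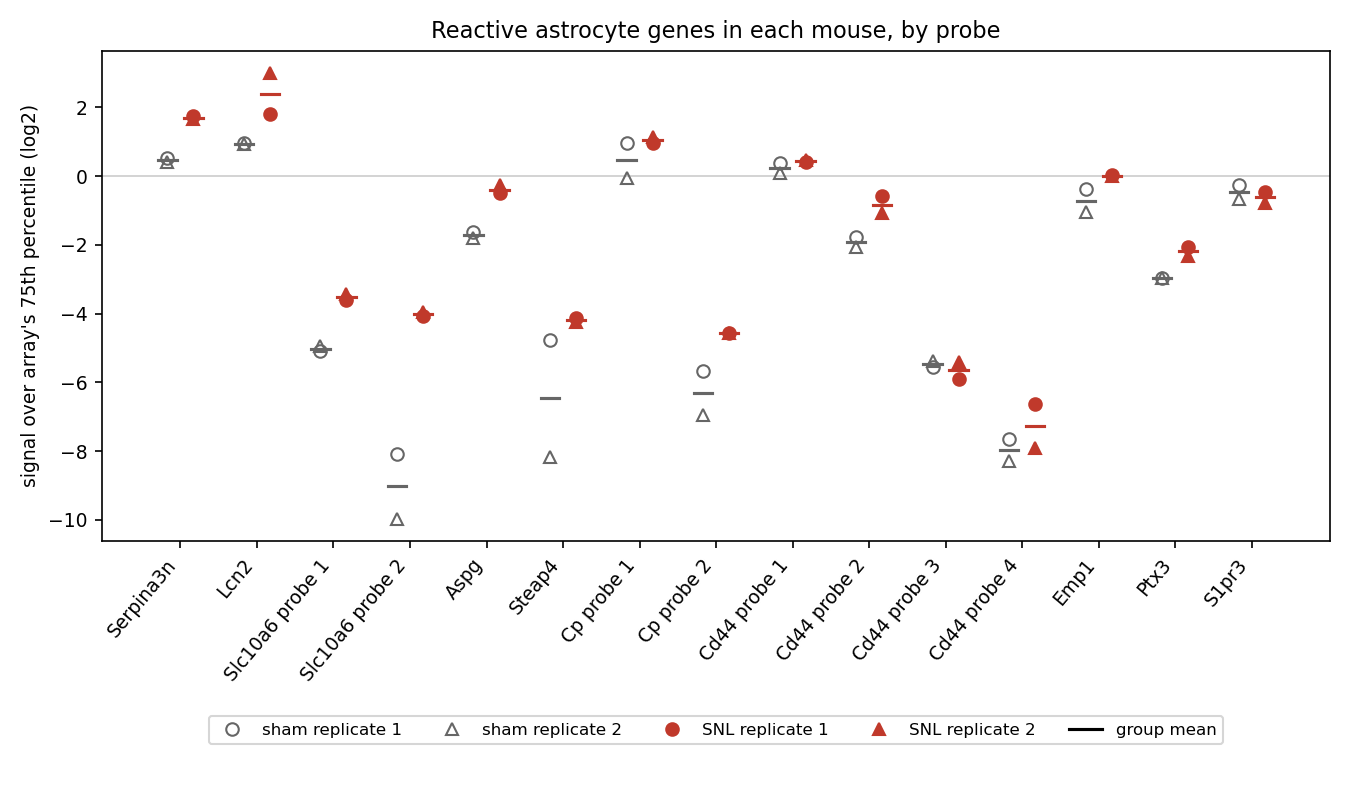
Signal of each of the 15 probes in each mouse, on a log2 axis relative to the array's 75th percentile, with sham mice as open symbols, SNL mice as filled symbols and a bar at each group mean. Both SNL mice lie above both sham mice for 11 probes, while Steap4, Cp and Emp1 show a low value in sham replicate 2.

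Serpina3n, a secreted inhibitor of serine proteases and a widely used reactive astrocyte marker, was measured at 0.54 and 0.40 in the sham mice and 1.75 and 1.66 in the SNL mice. The mice of each group lay close together and the groups did not overlap. The difference was 1.23 ± 0.11 (SE, n = 2 per group), or 2.35-fold, with a 95% interval of 0.91 to 1.55 and a limma adjusted p of 0.096. Leaving out any 1 of the 4 mice kept it between 1.17 and 1.3.

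Lcn2, which encodes lipocalin 2, a secreted protein that binds iron-carrying siderophores, was at 0.95 and 0.93 in the sham mice and at 1.80 and 3 in the SNL mice. The sham mice were nearly alike, and SNL replicate 2 was the highest of the 4 by a wide margin. The difference was 1.46 ± 0.45, or 2.76-fold, with a 95% interval of 0.18 to 2.75 (limma adjusted p = 0.368). It was 0.87 without SNL replicate 2 and 2.06 without SNL replicate 1, so its size depends on which SNL mouse is kept. Lcn2 is also abundant in neutrophils. Of 10 neutrophil markers, 0 were higher and 0 lower at unadjusted p under 0.05, with a summed signal of 11.7 and 17.1 in sham mice and 12.3 and 7.23 in SNL mice. Their median difference was -0.69, and it was -0.23 without SNL replicate 2 and -1.27 without SNL replicate 1. The part of these cells in the Lcn2 values was not tested.

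Cp, which encodes the copper-carrying ferroxidase ceruloplasmin, was at 0.96 and -0.05 in sham and 0.96 and 1.15 in SNL mice by probe 1. Sham replicate 1 equalled SNL replicate 1 at this precision, so the groups overlapped, and the difference was 0.60 ± 0.39 (limma adjusted p = 0.615). By probe 2, Cp was at -5.68 and -6.96 in sham and at -4.56 and -4.57 in SNL mice. This probe did separate the groups, with a difference of 1.75 ± 0.48, or 3.37-fold (limma adjusted p = 0.338). Without sham replicate 2 the differences were 0.093 by probe 1 and 1.11 by probe 2.

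Ptx3, a secreted pentraxin that recognises microbes and binds complement, was at -2.96 in both sham mice and at -2.06 and -2.32 in the SNL mice. The sham mice were nearly identical and the groups did not overlap. The difference was 0.77 ± 0.14, or 1.71-fold, with a 95% interval of 0.38 to 1.16 (limma adjusted p = 0.213).

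Slc10a6, a carrier of sulphated steroids in the cell membrane, was dim in all 4 mice. Probe 1 gave -5.09 and -4.95 in sham and -3.61 and -3.42 in SNL mice, with no overlap. The difference was 1.51 ± 0.13, or 2.84-fold, with a 95% interval of 1.14 to 1.87 (limma adjusted p = 0.0895). Probe 2 gave -4.08 and -3.96 in SNL mice. In the sham mice it read -8.09 and -9.97, neither of them well above background.

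By probe 2, SNL mice were therefore at least 15.1-fold higher, measured against the lowest signal well above background on each sham array or the probe's own signal, whichever was higher. The fitted value was 5.01 ± 0.70 (limma adjusted p = 0.174), and 3.04 with normexp background correction, which is a smaller fold than the bound, so the bound holds for the main values alone. Both probes were higher in both SNL mice.

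Aspg was at -1.62 and -1.79 in sham mice and at -0.50 and -0.27 in SNL mice. As for Serpina3n, mice of a group lay close together and the groups were apart. The difference was 1.32 ± 0.14, or 2.50-fold, with a 95% interval of 0.92 to 1.72 (limma adjusted p = 0.12).

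Steap4, a membrane metalloreductase that reduces iron and copper, was at -4.77 and -8.18 in sham mice and at -4.14 and -4.24 in SNL mice. It was well above background in 1 of the 2 sham mice and in both SNL mice, and sham replicate 2 was far below the other 3. The fitted difference of 2.28 ± 1.3 had a 95% interval of -1.32 to 5.89 (limma adjusted p = 0.563). It was 0.58 without sham replicate 2 and 3.99 without sham replicate 1.

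Cd44, the cell-surface receptor for hyaluronan, was read by 4 probes. Probe 1, the brightest, was at 0.38 and 0.09 in sham and 0.41 and 0.46 in SNL mice, a difference of 0.20 ± 0.14 (limma adjusted p = 0.648). Probe 2 was at -1.76 and -2.07 in sham and -0.58 and -1.08 in SNL mice, a difference of 1.09 ± 0.24, or 2.13-fold (limma adjusted p = 0.271). The SNL mice lay above the sham mice by both probes, but by probe 1 the gap between the nearest mice of the groups was only 0.02.

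The remaining Cd44 probes were dim and their groups overlapped. Probe 3 was at -5.54 and -5.38 in sham and -5.90 and -5.41 in SNL mice, and its difference of -0.19 ± 0.21 became 0.053 without SNL replicate 1 (limma adjusted p = 0.76 with all mice). Probe 4 was well above background in 1 of 2 mice of each group and read -7.65 and -8.29 in sham and -6.63 and -7.92 in SNL mice, a difference of 0.69 ± 0.54 (limma adjusted p = 0.667). The files list RefSeq transcripts of Cd44, a gene with many splice forms, at 4 for probes 1, 2 and 3 and at 3 for probe 4.

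Emp1, a tetraspan membrane protein related to the myelin protein PMP22, was at -0.37 and -1.05 in sham mice and at 0.02 and 0.00 in SNL mice. The SNL mice were alike and sham replicate 2 was the lowest. The difference was 0.72 ± 0.27, or 1.65-fold, with a 95% interval of -0.05 to 1.49 (limma adjusted p = 0.434), and it was 0.38 without sham replicate 2.

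S1pr3, a receptor for the lipid sphingosine 1-phosphate, was at -0.25 and -0.67 in sham mice and at -0.46 and -0.77 in SNL mice. The groups overlapped, and replicate 2 was the lower mouse of each. The difference was -0.16 ± 0.21, with a 95% interval of -0.76 to 0.45 (limma adjusted p = 0.81), and it turned to 0.0038 with normexp correction and to 0.052 without sham replicate 1.

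**Figure D2:**
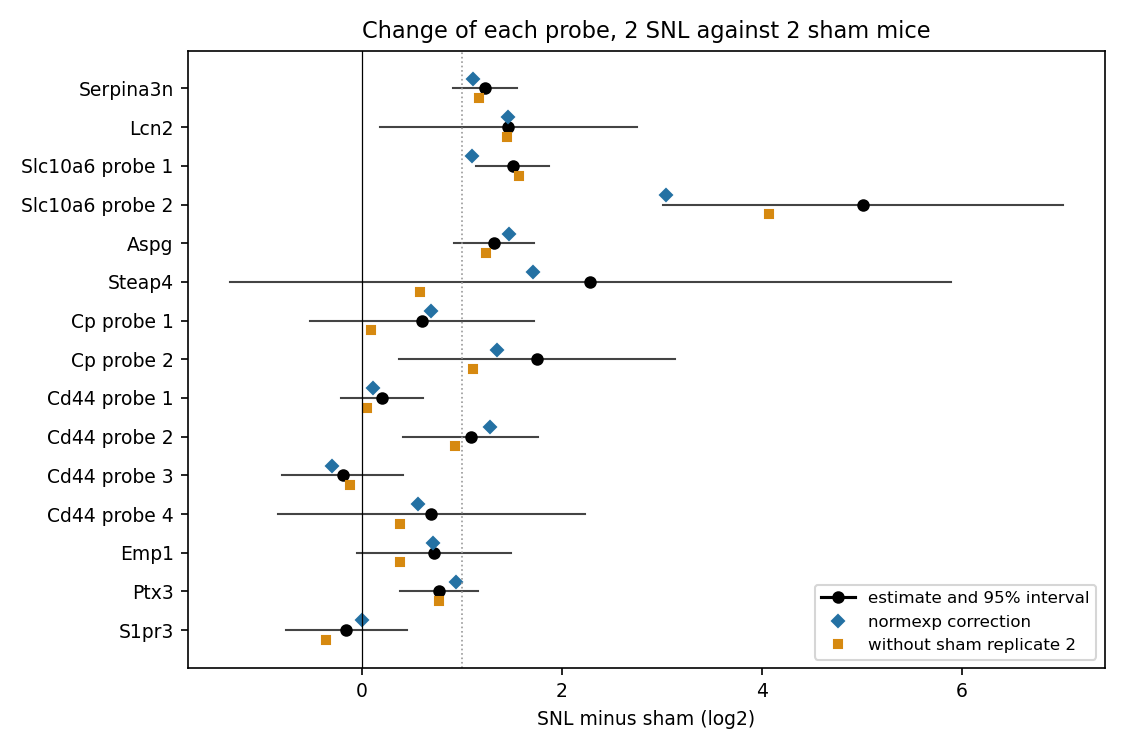
Difference of SNL from sham for each of the 15 probes on the log2 scale, with the 95% interval of the limma fit. Intervals of Serpina3n, Aspg, Ptx3, Lcn2, both Slc10a6 probes, Cp probe 2 and Cd44 probe 2 lie above 0, and those of Steap4, Emp1, S1pr3, Cp probe 1 and Cd44 probes 1, 3 and 4 include 0.

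Whether the probes of a gene differed from each other in their response was tested after the values were seen, by fitting the difference between each further probe and the brightest probe of its gene within each mouse. Cp probe 2 showed a larger difference than probe 1 by 1.15 ± 0.16 (limma adjusted p = 0.235). Slc10a6 probe 2 exceeded probe 1 by 3.5 ± 0.73 (limma adjusted p = 0.324), a value that rests on sham signals at background. Cd44 probe 2 exceeded probe 1 by 0.89 ± 0.23 (limma adjusted p = 0.394). Of 15130 such pairs on the array, 0 passed at adjusted p under 0.05 and 10.4% had an unadjusted p under 0.05. As the mean of their probes, Slc10a6 was at 3.26 ± 0.34, Cp at 1.18 ± 0.44 and Cd44 at 0.45 ± 0.18. The Slc10a6 mean includes probe 2 and so also rests on sham signals at background.

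Counted once per gene by its brightest probe, 4 of the 10 genes were at least 2-fold higher at unadjusted p under 0.05 (Serpina3n, Lcn2, Slc10a6 and Aspg), against 1.91% of 29303 tested genes, and 0 were as much lower, against 0.71%. At adjusted p under 0.05 the count was 0 of 10 in limma, against 0.157% of tested genes (0.147% higher and 0.0102% lower). For 8 of the 10 genes the SNL mice lay above the sham mice, against 25.2% of tested genes, and for 0 they lay below, against 21%. The median over the 10 genes was 1.00, and over all tested genes it was 0.028.

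The genes also differed in how far mice of the same group spread. Replicate 2 of the sham group was below replicate 1 for 12 of the 15 probes, against 49.5% of all tested probes, with a median gap of -0.32 against 0.003. In the SNL group, replicate 2 was below replicate 1 for 8 of the 15, against 43.3%, with medians of -0.01 and 0.039. Sham replicate 2 was the lowest of the 4 mice for 11 of the 15 probes, against 22.9% of all tested probes with a value in every mouse. Both SNL mice lay above both sham mice for 11 of the 15 probes, where the lowest mouse can only be a sham mouse. The share of all tested probes is therefore not a like baseline.

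Markers of Schwann cells, the myelinating cells of nerve roots, were low in the same mouse. Of 7 Schwann cell genes, 6 were lowest in sham replicate 2, and the summed signal of the 7 was 13.8 and 6.07 in sham and 17.4 and 12.7 in SNL mice. Prx, which encodes the peripheral myelin protein periaxin, was at 1.78 and -3.85 in sham and 1.97 and 1.29 in SNL mice.

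Markers of meninges and fibroblasts were lowest in sham replicate 2 for 9 of 10 genes, with summed signals of 27 and 16 in sham and 29.7 and 20.9 in SNL mice. Ogn, a small proteoglycan of connective tissue, was at 1.26 and -2.98 in sham and 2.04 and 1.09 in SNL mice. Every gene of both lists passed the filter on dim signal. The part of root or meningeal tissue in the low sham values of Steap4, Cp and Emp1 was not tested. Identity markers of astrocytes were lowest in sham replicate 2 for 1 of 12 genes. Lists of other reactive genes were often lowest in that mouse. The counts were 5 of 6 genes found across injuries and 9 of 12 linked to neuroinflammation. They were 8 of 10 linked to ischaemia and 10 of 15 inducers and STAT3 signalling genes. Most genes of these lists had a higher mean in SNL mice, so their lowest value fell more readily in the sham group. The same limit holds for the Schwann cell and meningeal lists, where 6 of 7 and 9 of 10 genes had a higher mean in SNL mice. Of the identity markers, 7 of 12 did. Serpina3n, Aspg, Ptx3, Lcn2 and Slc10a6 probe 1 showed differences of 1.17, 1.24, 0.77, 1.45 and 1.57 without sham replicate 2. Cd44 probe 2 went from 1.09 with all mice to 0.93.

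**Figure D3:**
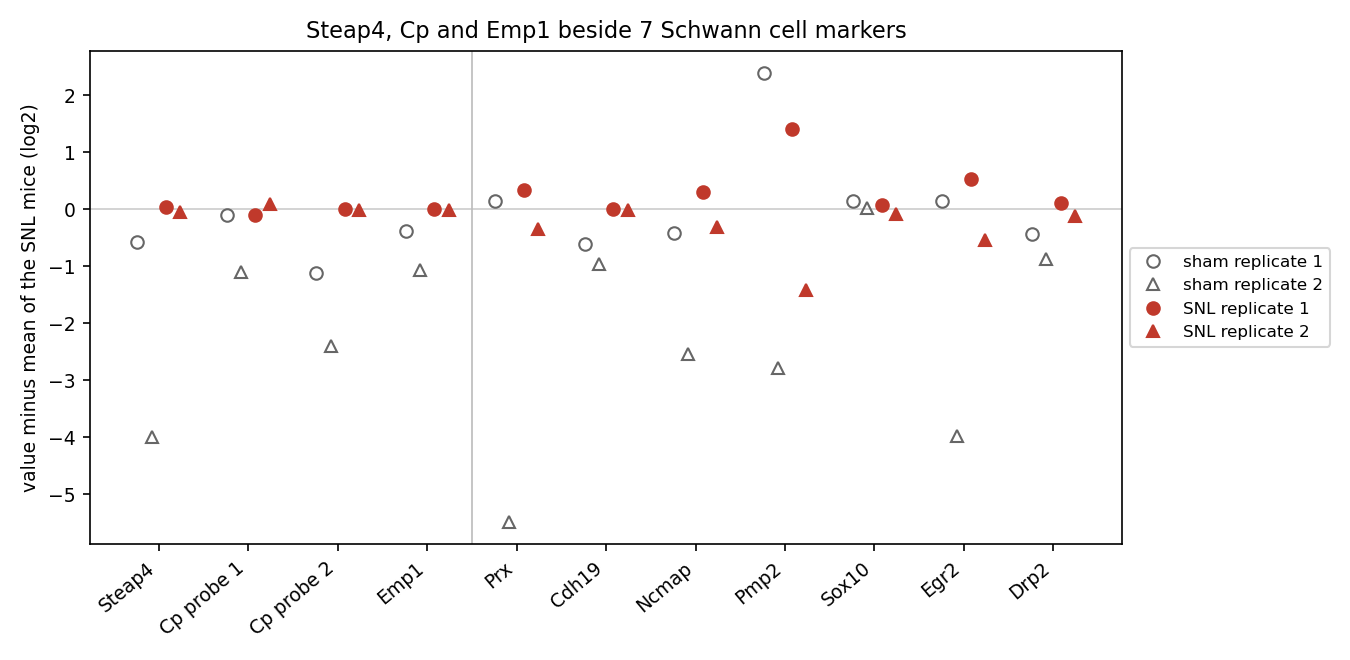
Steap4, Cp and Emp1 beside 7 Schwann cell markers in each mouse, as log2 value minus the mean of the SNL mice. Sham replicate 2 (open triangles) is the lowest mouse for every gene shown except Sox10.

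Genes of the astrocyte programme outside the 10 were described from lists. Identity markers of astrocytes had a median difference of 0.03 over 12 genes, with 0 past unadjusted p under 0.05 in either direction, where 6.35% of tested genes were higher and 5.18% lower. Gfap, the filament protein of astrocytes, was at 2.08 and 2.13 in sham and 2.21 and 2.11 in SNL mice, a difference of 0.06 ± 0.10 that turned to -0.16 with normexp correction. By brightest probe the groups of Gfap overlapped, as did those of Cp and S1pr3. Both SNL mice lay above both sham mice for 8 of the 10 genes, among them Serpina3n and Aspg, against 25.2% of tested genes. Both lay below for 21% of tested genes, so a lack of overlap is common and does not by itself set a gene apart from Gfap.

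Reactive genes found across injuries, other than these 10, had a median of 0.61 over 6 genes, of which 4 were higher at unadjusted p under 0.05 and 0 passed after adjustment in limma. They were Timp1, an inhibitor of matrix proteases, at 2.28 ± 0.33, the chemokine gene Cxcl10 at 2.37 ± 0.36, the oncostatin M receptor gene Osmr at 0.77 ± 0.18 and the small heat shock protein gene Hspb1 at 0.44 ± 0.12. The rest of this list were the filament genes Vim, at 0.42 ± 0.19, and Gfap, at 0.06 ± 0.10, neither of which passed that p. Gfap was thus counted both here and among the identity markers. Genes linked to ischaemia had a median of 0.70 over 10 genes, with 5 higher and 0 lower at unadjusted p under 0.05. Among them, the surface protein gene Cd109 was at 1.39 ± 0.21 and the lipopolysaccharide co-receptor gene Cd14, also a myeloid gene, at 1.79 ± 0.31. Genes linked to neuroinflammation had a median of 0.35 over 12 genes, with 4 higher and 0 lower, among them Fkbp5 at 0.63 ± 0.11 and Ggta1 at 1.02 ± 0.26. None of these lists had a gene past adjusted p under 0.05 in limma. Without sham replicate 2 the medians were 0.46 for genes found across injuries, 0.49 for ischaemia and 0.20 for neuroinflammation.

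Of 16 inducers of the reactive state and STAT3 signalling genes, 15 were tested. Of these, 9 were higher and 0 lower at unadjusted p under 0.05, and 0 passed after adjustment in limma. The median was 0.79, and 0.54 without sham replicate 2. Il6 is among the 9 and passed the filter on dim signal through the SNL mice alone. Socs3, a feedback inhibitor that STAT3 induces, was at -1.36 and -1.67 in sham and 0.38 and 0.56 in SNL mice, a difference of 1.99 ± 0.16 (limma adjusted p = 0.0874). The complement gene C1qa and the interleukin gene Il1a, both products of microglia, were at 1.28 ± 0.12 and 1.47 ± 0.20. Il6 was read well above background in SNL mice alone, where it was at least 3.37-fold higher (limma adjusted p = 0.172), and its fitted log2 difference was 1.92, or 1.07 with normexp correction.

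Of 10 microglia markers, 9 had a higher mean in SNL mice, 7 were higher and 0 lower at unadjusted p under 0.05 (against 6.35% and 5.18% of tested genes), and 0 passed after adjustment in limma. They had a median of 0.56 and summed signals of 30.7 and 31.6 in sham and 46.8 and 39.7 in SNL mice. Tmem119, a microglial surface protein, was at 0.79 ± 0.11, the lysosomal marker Cd68 at 0.88 ± 0.12, the leukocyte gene Ptprc at 0.73 ± 0.094 and the chemokine receptor gene Cx3cr1 at 0.57 ± 0.13, or 0.34 with normexp correction. A second probe of Cd68 gave 1.46. The part of microglia in the SNL values of the 10 genes was not tested. Schwann cell markers had a median of 0.78, with 2 of 7 higher at unadjusted p under 0.05, and it was -0.14 without sham replicate 2. Meningeal and fibroblast markers had a median of 0.32, with 1 of 10 higher at that p, and it was -0.22 without sham replicate 2. Markers of vessels, choroid plexus and ependyma, sensory ganglion neurons, neurons and oligodendrocytes had medians of -0.21, 0.13, 0.12, 0.15 and 0.06, and those of neutrophils -0.69.

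**Figure D4:**
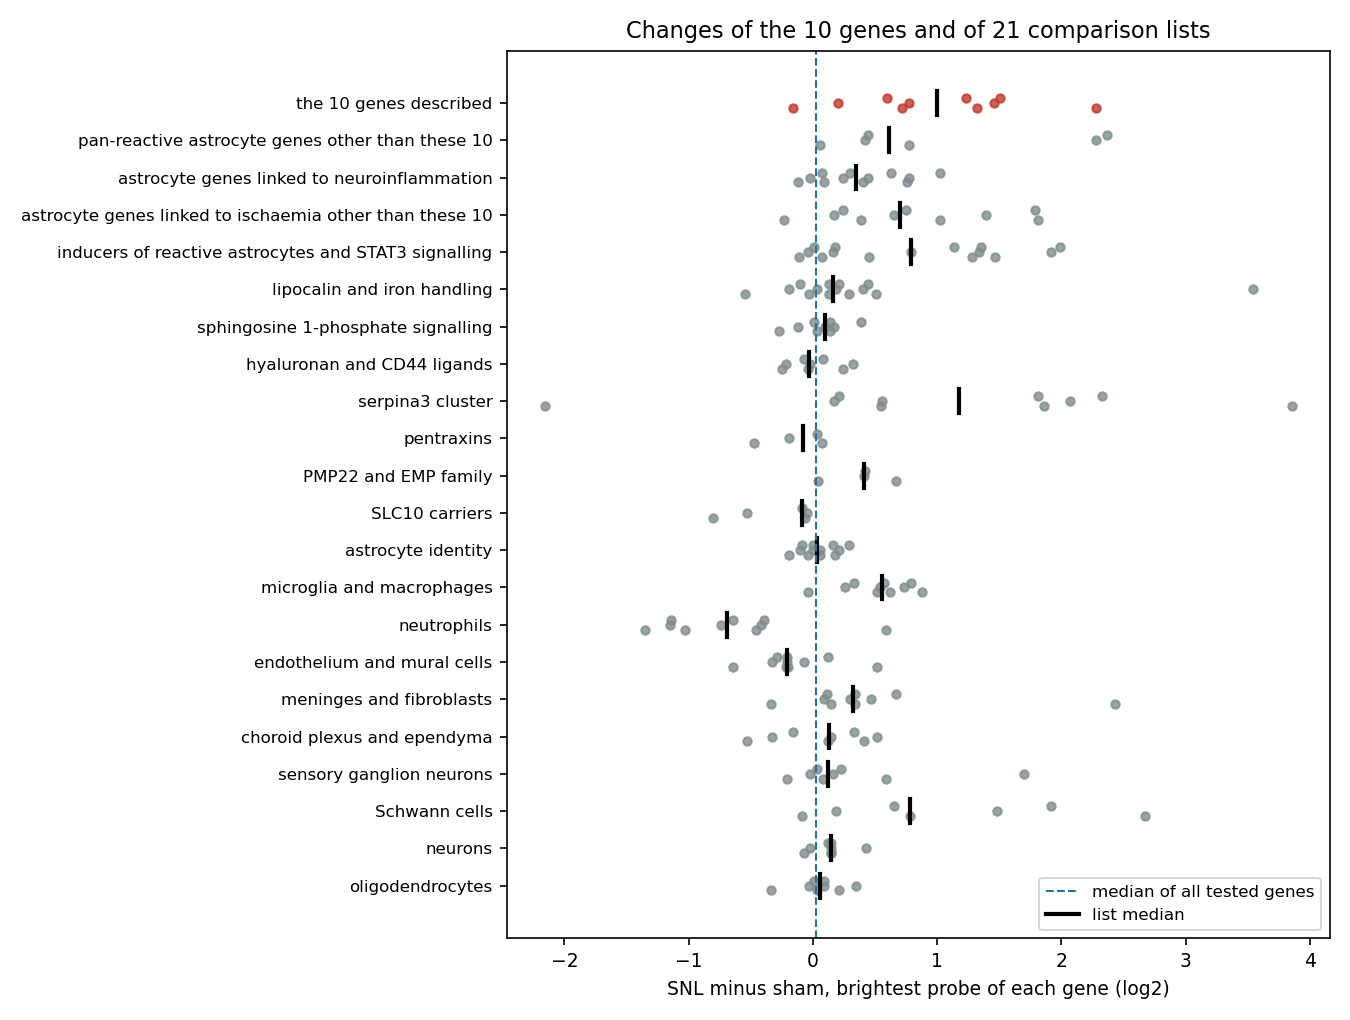
Difference of SNL from sham (log2) for each tested gene of each list by its brightest probe, with the median of the list marked. The 10 genes have a median of 1.00, the serpina3 cluster 1.18, the inducers and STAT3 signalling genes 0.79 and the astrocyte identity markers 0.03.

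Paralogs and partners of single genes were read beside them. Serpina3n lies in a cluster of closely related serpin genes, so which copy each probe reads is uncertain. Of 10 other cluster genes, 5 were higher and 1 lower at unadjusted p under 0.05, and Serpina3f alone passed after adjustment. Among the 5, Serpina3k was well above background in the SNL mice alone. Serpina3f rose by 2.07 ± 0.11 (limma adjusted p = 0.0482), from 0.12 and 0.15 in sham to 2.27 and 2.14 in SNL mice. Serpina3i, Serpina3b and Serpina3h were at 1.86 ± 0.11, 2.33 ± 0.17 and 1.81 ± 0.13, with limma adjusted p of 0.0561, 0.0738 and 0.0779. Serpina3c, the cluster gene with the lower signal and picked with its values known, was at -2.86 and -3.24 in sham and -4.72 and -5.70 in SNL mice.

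Partners of Lcn2, Cp and Steap4 in iron handling had a median of 0.16 over 14 tested of 15 genes, with 1 higher and 1 lower at unadjusted p under 0.05. The higher was Hamp, the gene of the iron hormone hepcidin, which only the SNL mice showed well above background, at least 6.41-fold higher than sham (limma adjusted p = 0.12), with a fitted log2 difference of 3.54, or 2.05 with normexp correction. Hamp entered the test through the SNL mice alone. For Il6 and Hamp the fold with that correction is under the bound, which holds for the main values alone and takes no account of the spread between mice. The lower was Slc40a1, the iron exporter ferroportin that hepcidin removes from the membrane, at 0.88 and 0.98 in sham and 0.47 and 0.29 in SNL mice, a difference of -0.55 ± 0.12 (limma adjusted p = 0.276), or -0.34 with normexp correction. Hmox1, a haem-degrading enzyme, and Ftl1, a ferritin chain, were at 0.51 ± 0.18 and 0.40 ± 0.14, and at 0.31 without sham replicate 2 and 0.26 without SNL replicate 1. Another Hmox1 probe gave 0.97.

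For S1pr3, the other receptors, kinases and carriers of sphingosine 1-phosphate had a median of 0.10 over 9 tested of 10 genes. Sphk1, a kinase that makes this lipid, was the single gene at unadjusted p under 0.05, at 0.39 ± 0.10 (limma adjusted p = 0.327) and at 0.64 by its other probe. For Cd44, enzymes and ligands of the hyaluronan system had 0 of 8 tested genes at that p in either direction, a median of -0.03, and Has1, a hyaluronan synthase, at 0.32 ± 0.13. The ligand gene Spp1 was at -0.22 ± 0.12, or -0.097 with normexp correction. For Ptx3, the 4 tested pentraxins had a median of -0.08, with Apcs, the serum amyloid P gene, at -0.47 ± 0.13.

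For Emp1, 0 of 4 relatives passed unadjusted p under 0.05. Pmp22, the peripheral myelin protein, was at 2.96 and 2.11 in sham and 3.46 and 2.96 in SNL mice, again lowest in sham replicate 2. For Slc10a6, the 5 tested carriers of the family had a median of -0.09, which was -0.29 with quantile normalization, -0.46 without SNL replicate 2 and -0.60 when sham replicate 2 was left out. Of the 5 carriers, 2 were lower at that p. Slc10a7 was at -0.80 ± 0.16 (-0.51 with normexp correction) and the neuronal carrier Slc10a4 at -0.53 ± 0.12 (limma adjusted p = 0.259 and 0.276). None passed after adjustment, and the signs of the family medians for pentraxins and hyaluronan genes changed when single mice were left out, and the latter also with normexp correction (0.05).

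Promoters were read because STAT3 and NF-kB are known to act in the reactive state. RefSeq promoter windows on GRCm38.p6, from 250 bases before to 50 after a gene's start, were found for all 10 genes (12 windows) and searched on both strands. The letters TTCNNNGAA, a STAT site, were in windows of Steap4 and Emp1, or 2 of 12, and in 8.3% of all 32851 windows. The NF-kB site, of 10 letters, was in windows of Serpina3n and Steap4 (1.63% of all windows), TGANTCA, an AP-1 site, in Cp and Emp1 (7.81%), and TTGCNNAAT, a C/EBP site, in Steap4 and Ptx3 (2.4%). The letters TATAAA, those of a TATA box, were in windows of Steap4 and Cp (13.6%). In Steap4 they lay on the opposite strand, 215 bases before the start. In Cp they lay 25 bases before the start on the gene's strand and 27 before it on the opposite strand. In the Emp1 window 1 STAT match shares bases with an AP-1 match.

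The 250 bases before the start are shown for Serpina3n, whose probe had the smallest SE of the 15, and for both genes with a STAT match, all on the plus strand with the match in capitals (NF-kB for Serpina3n, STAT for Steap4 and Emp1). They lie at chr12:104406458-104406707, chr5:7960222-7960471 and chr6:135362681-135362930.
Serpina3n: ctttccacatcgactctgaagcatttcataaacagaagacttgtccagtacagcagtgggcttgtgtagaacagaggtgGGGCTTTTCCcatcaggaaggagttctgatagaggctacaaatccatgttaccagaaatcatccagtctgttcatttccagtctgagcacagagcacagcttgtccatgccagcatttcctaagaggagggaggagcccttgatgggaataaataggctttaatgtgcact
Steap4: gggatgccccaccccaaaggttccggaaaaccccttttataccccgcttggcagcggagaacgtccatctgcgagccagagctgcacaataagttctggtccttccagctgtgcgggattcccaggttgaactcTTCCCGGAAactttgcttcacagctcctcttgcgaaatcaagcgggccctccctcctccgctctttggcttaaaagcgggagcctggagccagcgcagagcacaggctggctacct
Emp1: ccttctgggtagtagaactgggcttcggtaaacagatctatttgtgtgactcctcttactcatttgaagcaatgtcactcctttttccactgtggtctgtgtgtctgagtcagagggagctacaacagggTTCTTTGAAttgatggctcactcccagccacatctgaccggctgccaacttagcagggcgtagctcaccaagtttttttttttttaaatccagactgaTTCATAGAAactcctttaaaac

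Steap4 and Emp1, whose windows hold the STAT letters, had differences of 2.28 and 0.72 with wide spread in sham mice. Serpina3n, Aspg and Slc10a6 had no STAT match in these windows. Binding was not measured, and the matches describe letters in a short window.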

How the data were processed

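RNA of 4 spinal cords, 1 per mouse and array, was hybridised with Cy3 to 1-colour Agilent arrays (design 028005), per the labels' protocols and the file headers. The deposited scanner files hold linear intensity values from Agilent Feature Extraction 10.7.3.1, per the file headers. The submitters' processing notes name version 10.7.1.1. A series-wide table that the authors deposited holds log2 values. Set against the scanner values it correlated at r = 1, lay 0.122 to 0.132 away, had medians of -3.45, -3.52, -3.48 and -3.33 (sham, then SNL), ran the same way and was not centred per gene; its exact scaling is unknown.

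The processed signal was divided by the array's 75th percentile (59305 spots, controls left out) and taken to log2. Outlier-flagged spots were dropped and spots of a probe averaged. A probe well above background on at least 2 arrays was tested (44718 of 55681) in limma 3.58.1 (R 4.3.3) without covariates, with Benjamini-Hochberg adjustment over all tested probes. The fit had 2 residual and 1.7 prior degrees of freedom and a median SE of 0.14. An exact permutation test of 2 against 2 cannot go below 0.333, so none was run. Of the probes, 24461 kept the name in the file and the others took a current RefSeq symbol. The scripts were tested on simulated data with spread drawn from these arrays and known changes in 50 probes of each size. Changes of 1 log2 unit passed at adjusted p under 0.05 in limma for 0% of them. The share was 4% for 2 units and 58% for 4 units, so a gene that did not pass may still differ.

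The 10 genes and the lists were chosen with earlier results of these data known. Named list genes are up to 4 per list with the smallest p, and Gfap, Atf3 and Aif1 (0.52 ± 0.16). Vim was named beside these to complete its list. A further Schwann cell marker, beside the 7 described, is not reported here. Alternatives were normexp correction (offset 50), quantile normalization, the authors' table, other filters, a variance trend with robust estimation, a replicate block, the mean of a gene's probes and leaving out each mouse.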

Additional observations from a re-analysis of the deposited data

How the results depend on the processing

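No probe of the 10 genes passed in the main analysis. At adjusted p under 0.05 in limma, 1 probe passed with normexp correction (Slc10a6 probe 2, adjusted p = 0.0243), 3 when dim probes were not filtered, and 4 when limma used a variance trend with robust estimation. By brightest probe, 3 genes passed under each of the last-named settings: Serpina3n, Slc10a6 and Aspg. With the variance trend their adjusted p were 0.00339, 0.0361 and 0.0127. The count at least 2-fold higher at unadjusted p stayed at 7 probes under most settings, with 6 when all 4 arrays had to be above background and 5 to 9 with 1 mouse left out. By brightest probe it was 4, and 3 to 6 with 1 mouse left out. S1pr3 turned to 0.0038 with normexp correction, and with 1 mouse left out it ranged from -0.36 to 0.052 (without sham replicate 1). Cd44 probe 3 ranged from -0.44 to 0.053 (without SNL replicate 1).

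Over all tested probes, the 63 higher and 5 lower calls became 186 and 24 with normexp correction, 2095 and 169 with no filter and 514 and 140 with the variance trend. Quantile normalization gave 34 higher, the filter on all 4 arrays 9 lower, the replicate block 0 and 0, and leaving out any 1 mouse 0 and 0. The 343 probes at least 2-fold lower became 134 with normexp correction and 139 with the filter on all 4 arrays, and the 805 higher became 2088 with no filter. With 1 mouse left out these were 769 to 1252 higher and 324 to 1012 lower. The cause was not tested. The median of all tested probes stayed between -0.038 and 0.059.

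The labels number the replicates and state no pairing of mice. The gap between replicates 1 and 2 in sham correlated with that in SNL at r = -0.0162 across probes, which cannot show whether mice were paired. In both groups replicate 1 lay in column 1 of the slide and replicate 2 in column 2. With the replicate block, 7 of the 15 probes again met the 2-fold rule and 0 passed. A block for slide or scan was not run, as there was 1 slide and 1 scan. With a variance trend, Slc10a6 probe 2 had an adjusted p of 0.0326. Where a mouse is left out, the lone mouse of its group is assumed to vary like the other group. Values near background, as for Slc10a6 probe 2, Steap4 and Cd44 probe 4, limit what can be read from their size.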
